A study of Mus musculus with 8 samples.

Results

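Proteasome genes were examined in CD4+ T cells across 4 groups of mice. Probes whose gene name was Psma, Psmb, Psmc, Psmd or Psme followed by a number were taken from the array, 83 probes of 44 genes, and each gene was read on its brightest probe. A gene was a member if that probe was called well above background on all 8 arrays, and 42 genes were, of 21520 genes tested on the array. Psma8, whose brightest probe passed on 2 arrays, and Psmb11, a thymus subunit that passed on 0, were left out, while the dimmest member, the assembly chaperone gene Psmd9, lay between 0.02 and 0.45 on the log2 scale used throughout. On that scale 0 is the 75th percentile of an array's signals. The members comprised 7 alpha ring genes (Psma1 to Psma7), 7 standard beta ring genes (Psmb1 to Psmb7), 3 immunoproteasome genes (Psmb8, Psmb9 and Psmb10), 6 ATPase genes (Psmc1 to Psmc6), 14 genes grouped here as non-ATPases (Psmd1 to Psmd14, subunits of the cap other than the assembly chaperones Psmd5, Psmd9 and Psmd10) and 4 activator genes (Psme1, Psme2b, Psme3 and Psme4). The last member, Psmc3ip, shares the name pattern but encodes a meiotic recombination factor and not a proteasome subunit.

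All mice were C57BL/6, received OVA-specific TCR transgenic CD4+ T cells and were immunised with dendritic cells pulsed with OVA peptide, OVA being ovalbumin. They either carried MCA205-OVA, a fibrosarcoma that expresses OVA, or were tumour-free, and they were treated with control antibody or with one that binds the receptor of IL-6 (anti-IL-6R), so that each of the 4 groups had 2 arrays. Among control antibody arrays, replicates 1 and 2 came from tumour-free and 3 and 4 from tumour-bearing hosts. Among anti-IL-6R arrays, replicates 5 and 6 came from tumour-free and 7 and 8 from tumour-bearing hosts. The series asks what underlies an IL-6-dependent inhibition of Th1 cells, the helper T cells that make interferon-gamma, in tumour-bearing mice. CD4+ T cells were isolated on day 4 after immunisation, as a mixture of transferred and host cells. The sources used here give neither the proportions of these cells nor the purity.

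The proteasome is the protease that degrades proteins tagged with ubiquitin. Its core is a stack of alpha and beta rings, of which the beta subunits Psmb5, Psmb6 and Psmb7 cut peptide bonds, and its cap of Psmc ATPases and Psmd subunits binds, unfolds and feeds in the substrate. In lymphocytes and in cells exposed to interferon-gamma, Psmb8, Psmb9 and Psmb10 are built into new cores in place of Psmb5, Psmb6 and Psmb7, which changes the peptides that reach MHC class I. The Psme activators open the core without using ATP, and the transcription factor Nrf1 (gene Nfe2l1) raises proteasome genes together when proteasome capacity falls short.

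The catalytic subunits fall under different types of control, so the 250 bases upstream of the start of 4 of their genes are shown, from RefSeq in build GRCm38.p6, each read 5′ to 3′ on the gene's strand. The windows are chr17:34197945-34198194 (plus strand) for Psmb8, chr17:34187331-34187580 (minus) for Psmb9, chr14:54617996-54618245 (minus) for Psmb5 and chr11:70525107-70525356 (plus) for Psmb6. The locus of Psmb6 begins at 70525324 in this build, so the last bases of its window lie inside the locus and not upstream of it. Capitals mark the motif matches that a search found: a gamma-activated site (TTCNNNGAA) in Psmb8, a CCAAT box (CCAAT, here on the opposite strand) in Psmb9, and the antioxidant response element (TGACNNNGC), the core of the element bound by Nrf1, in Psmb5 and Psmb6.
Psmb8: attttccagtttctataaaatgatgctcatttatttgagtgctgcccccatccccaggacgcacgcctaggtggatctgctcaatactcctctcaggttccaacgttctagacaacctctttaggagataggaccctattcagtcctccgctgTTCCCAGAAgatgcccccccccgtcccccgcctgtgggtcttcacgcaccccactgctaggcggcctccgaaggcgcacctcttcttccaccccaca
Psmb9: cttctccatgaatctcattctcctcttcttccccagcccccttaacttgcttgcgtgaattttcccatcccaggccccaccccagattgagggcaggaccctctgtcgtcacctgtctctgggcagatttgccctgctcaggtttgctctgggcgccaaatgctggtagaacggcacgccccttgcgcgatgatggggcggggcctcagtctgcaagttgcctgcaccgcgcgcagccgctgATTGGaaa
Psmb5: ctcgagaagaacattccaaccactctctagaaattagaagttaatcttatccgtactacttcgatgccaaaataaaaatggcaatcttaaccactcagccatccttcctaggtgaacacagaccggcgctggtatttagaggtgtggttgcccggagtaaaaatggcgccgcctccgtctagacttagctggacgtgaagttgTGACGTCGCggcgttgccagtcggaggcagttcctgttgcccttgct
Psmb6: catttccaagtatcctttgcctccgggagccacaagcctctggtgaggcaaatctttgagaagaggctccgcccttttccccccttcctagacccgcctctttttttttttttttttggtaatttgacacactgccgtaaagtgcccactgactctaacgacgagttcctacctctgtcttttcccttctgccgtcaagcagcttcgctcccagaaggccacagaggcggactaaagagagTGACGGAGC
Counted from the start next to each window, the first base of the match lay at -97 in Psmb8, -8 in Psmb9, -47 in Psmb5 and -9 in Psmb6. The match of Psmb6 thus lay inside its locus. The window of Psmb9 is shared with the peptide transporter gene Tap1, which starts 226 bases away and is read in the opposite direction. Windows of 300 bases (250 before and 50 after the start, both strands) were found for 36 of the 42 members and searched for 4 motifs, which do not contain one another. Psmb1, Psmb2, Psmb7, Psmc3, Psmd3 and Psmd7 had no entry. The antioxidant response element was found in 6 member windows (16.7%), Psmb5, Psmb6, Psmc6, Psmd9, Psmd12 and Psme4, against 12.5% of 27025 windows of all genes. The interferon-stimulated response element was found in 4 (11.1%), Psmb3, Psmd4, Psmd9 and Psme1, against 3.5%. The gamma-activated site was found in 2 (5.6%), Psmb8 and Psmd2, against 8.5%, and the CCAAT box in 14 (38.9%) against 37.9%. These matches describe letters only.

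The 8 arrays lay on 1 slide and were scanned once, 53.1% to 59.8% of their probes were well above background, and no spot was saturated. Control antibody arrays filled 1 column of the slide and anti-IL-6R arrays the other, and tumour-free arrays the upper rows, so position and group cannot be told apart. Of 11 pan T cell markers 10 were measured (Trac was not), with medians of 0.18 in tumour-bearing minus tumour-free mice under control antibody and -0.24 for anti-IL-6R minus control in tumour-bearing mice. The 2 CD4 T cell markers, Cd4 and Zbtb7b, had medians of 0.04 and -0.10, with 1 above and 1 below 0 in each. Medians were -0.38 and 0.26 for the 2 CD8 genes and -0.40 and 0.55 for the 4 MHC class II genes. No CD4, CD8 or MHC class II gene was past the threshold. In the same 2 comparisons the 10 proliferation genes had medians of 0.52 (3 past the threshold) and -0.86 (7 past it), the 13 erythroid markers 1.97 (10) and -1.09 (7), the 12 neutrophil markers 1.51 (6) and -1.48 (6), and the 11 B cell markers -0.90 (6) and 0.72 (4). The threshold was an adjusted p of 0.05 in limma. Of all genes, 4.24% passed as higher and 1.97% as lower in the first comparison. In the second, 2.04% passed as higher and 3.82% as lower. Summed over the list, in units of the array's 75th percentile, signals in the 4 groups in the order above ranged over 95.2 to 101, 124 to 138, 94 to 113 and 84.1 to 90.1 for proliferation and 196 to 379, 501 to 765, 516 to 620 and 497 to 609 for erythroid genes. The corresponding ranges were 34.2 to 54.3, 122 to 130, 38.4 to 154 and 36.1 to 54 for neutrophil and 45.3 to 60.2, 25.6 to 35.8, 48.8 to 49.8 and 47.4 to 50.9 for B cell genes. Such a sum can rest on a few bright genes and does not show that each marker was detected. Medians in the same 2 comparisons were 1.41 and -0.56 for 8 plasma cell markers, -0.59 and 0.60 for 8 NK cell, -0.50 and 0.64 for 9 macrophage and -0.16 and 0.41 for 6 dendritic cell markers. The NK cell list was split. In the first comparison 2 were above 0 (1 past the threshold) and 6 below (3 past it). In the second 6 were above 0 (3 past it) and 2 below (0 past it). The part of these cells and of proliferation in the values of the proteasome genes was not tested, and in such bulk samples fewer cells of a type and less RNA per cell cannot be told apart.

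The members moved largely as a block from array to array. Each gene's value was set against its own mean over the 8 arrays, and the mean of these deviations over the 42 genes was 0.02 and -0.13 in the tumour-free control arrays, 0.06 and 0.12 in the tumour-bearing control arrays, 0.08 and 0.03 in the tumour-free anti-IL-6R arrays and -0.04 and -0.14 in the tumour-bearing anti-IL-6R arrays. Replicate 4 held 39 of the 42 genes above their own mean and replicate 5 held 41, whereas replicates 2 and 8 held 1 each. Replicates of the same group thus differed as a block too, as replicates 1 and 2 did. Across all genes the median deviation per array stayed between -0.05 and 0.05. Single members had a median SD between replicates of 0.081 (range 0.03 to 0.155) against 0.122 over all genes. These sets are unlike, since members had to be well above background on all 8 arrays and the other genes in some group only. Because the genes shift together within an array, counts of members are not counts of independent observations.

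**Figure D1:**
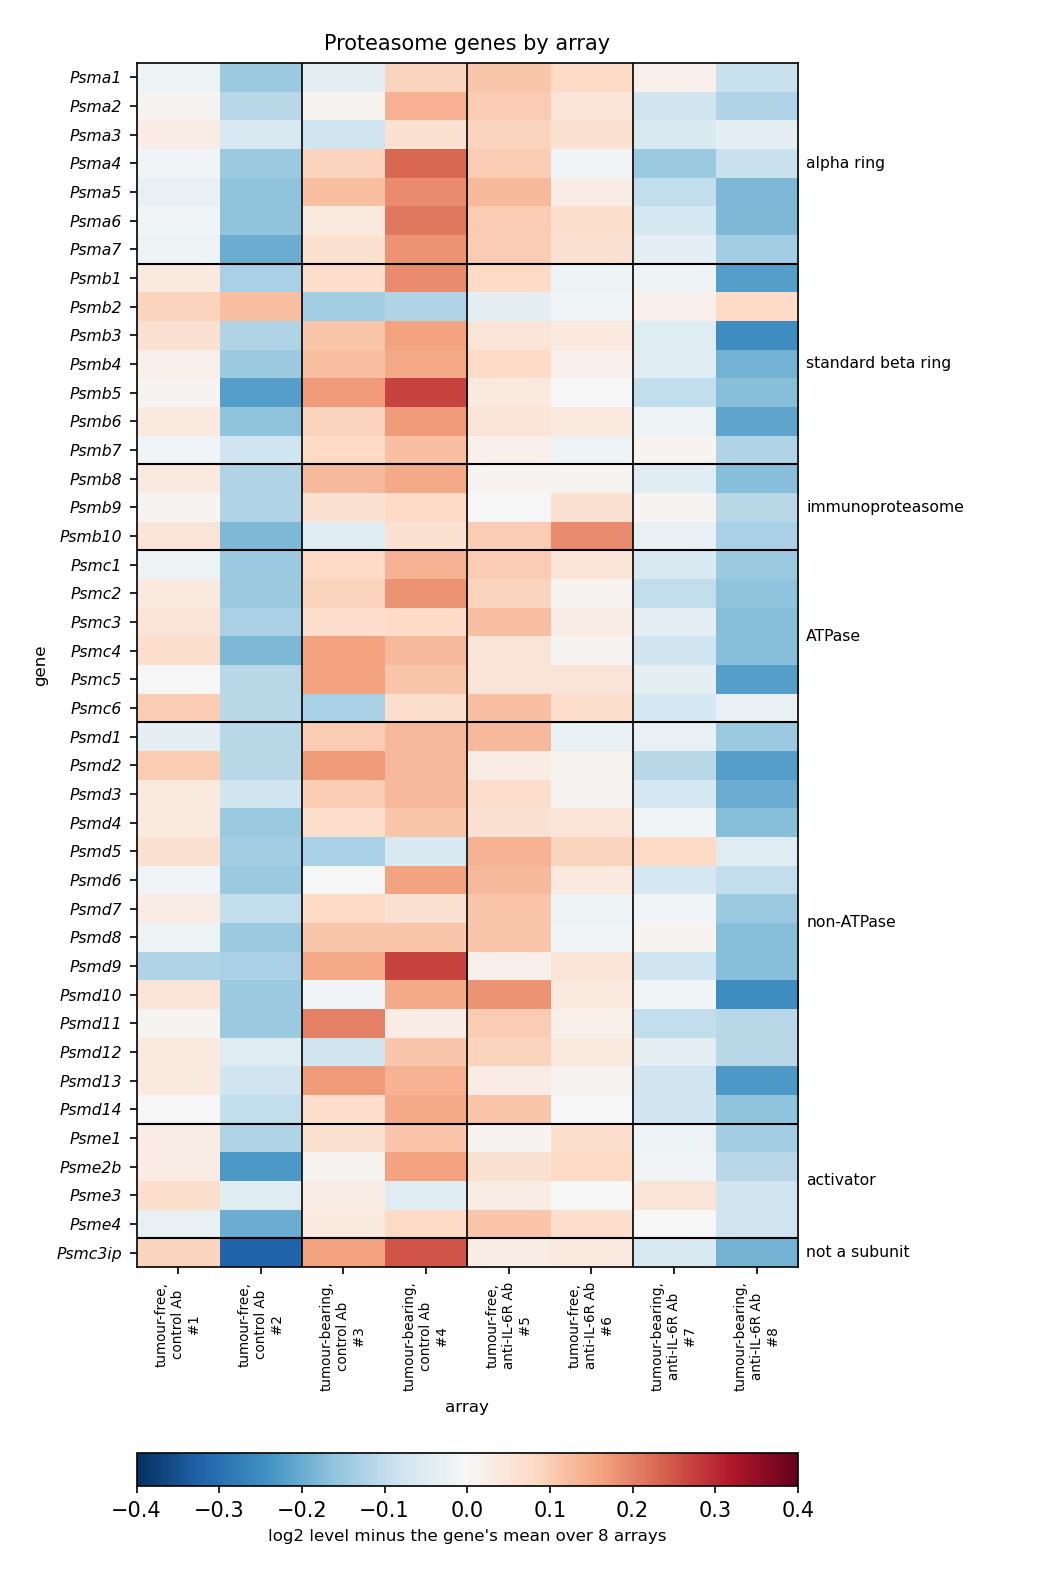
Level of the 42 members (rows, by class) on the 8 arrays (columns, by group and replicate) as log2 level minus the gene's mean over the 8 arrays; red is above and blue below that mean. Replicates 4 and 5 are red in nearly all genes, with 39 and 41 of 42 above their mean, and replicates 2 and 8 blue, with 1 each above it; Psmb2 runs against the others.

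Tumour-bearing and tumour-free mice were compared under control antibody, the first contrast of the design. The differences were small: the largest were 0.34 for the chaperone gene Psmd9 and 0.33 for Psmb5, the chymotrypsin-like subunit, or 1.26 and 1.25-fold, and the median over the 42 genes was 0.17, or 1.12-fold, against 0.03 over all genes tested. None of the 42 passed an adjusted p of 0.05 in limma (smallest 0.071, Psmb5), where 6.21% of all genes did. At an unadjusted p under 0.05, 11 members were higher against 14.1% of all genes and 1 was lower, Psmb2, against 10.6%. The tumour-bearing arrays lay above both tumour-free arrays in 32 members against 30.0% of all genes, and below them in Psmb2 alone against 22.9%. In 38 of 42 genes the difference was above 0, against 54.9% of all genes, and in 36 it was above the median of all genes. The size rested on the tumour-free arrays: the median was 0.24 without replicate 1 and 0.09 without replicate 2.

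By class, the medians were 0.21 for the alpha ring, 0.19 for the ATPases that drive unfolding, 0.17 for the standard beta ring, 0.16 for the non-ATPases and for the activators, and 0.12 for the immunoproteasome genes. Within the alpha ring, which gates entry to the core, Psma5 had the largest difference. Its levels under control antibody, 4.20 and 4.07 without and 4.35 and 4.42 with the tumour, did not overlap (difference 0.25 ± 0.08 SE, limma adjusted p = 0.099). Psma3 had the smallest, with 5.37 and 5.28 against 5.26 and 5.40, overlapping ranges and a difference of 0.00 that turned to -0.07 under quantile normalization. Among the ATPases, Psmc4 gave 0.20 ± 0.09 (3.34 and 3.09 against 3.42 and 3.39), Psmc5 0.19 ± 0.08 and Psmc6 -0.03 ± 0.10, the last overlapping and at 0.06 under array median scaling. Psmd9, which helps assemble the base of the cap, had 0.07 and 0.05 against 0.34 and 0.45, with no overlap (0.34 ± 0.09, adjusted p = 0.072), whereas Psmd5, another assembly chaperone, overlapped at -0.05 ± 0.10 and was at 0.03 under array median scaling.

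Anti-IL-6R was then compared with control antibody in tumour-bearing mice, which share replicates 3 and 4 with the comparison above, so that the values of the 2 comparisons are not independent. Here the members lay lower with anti-IL-6R: the median was -0.21, or 0.865-fold, against -0.05 over all genes, and the extremes were -0.35 for Psmb5 and 0.18 for Psmb2. No member passed in limma (smallest adjusted p 0.054, for Psmb5 and for Psmd13, a scaffold subunit of the lid), where 5.86% of all genes did. At an unadjusted p under 0.05, 22 members were lower against 17.2% of all genes and 1 was higher, Psmb2, against 12.1%. The anti-IL-6R arrays lay below both control arrays in 33 members against 36.3% of all genes, and above them in 2, Psmb2 and Psmd5, against 24.9%. In 40 of 42 genes the difference was below 0, against 57.8% of all genes, and in 37 it was below the median of all genes.

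Psma5 lay at 4.12 and 4.04 with anti-IL-6R, below both control arrays (-0.30 ± 0.08, adjusted p = 0.058). Psma3 gave -0.04 ± 0.07 with overlapping arrays, and 0.08 under quantile normalization. The ATPase genes Psmc5 (-0.27 ± 0.08, adjusted p = 0.083) and Psmc4 (-0.26 ± 0.09) did not overlap, while Psmc6 did (-0.02 ± 0.10, and 0.09 under quantile normalization). Psmd9 came to 0.10 and 0.02, a difference of -0.34 ± 0.09 (adjusted p = 0.064). Psmd5, with 1.74 and 1.61 against 1.53 and 1.60, differed by 0.11 ± 0.10, and by -0.05 under array median scaling. The class medians were -0.25 for the standard beta ring, -0.24 for the ATPases, -0.21 for the alpha ring, -0.20 for the non-ATPases and -0.12 for both the immunoproteasome and the activator genes. Both tumour-bearing control arrays stood above the other 6 arrays in 15 members (35.7%) against 17.2% of all genes, among them 5 of the standard beta ring (Psmb3 to Psmb7) and, of the immunoproteasome genes, Psmb8.

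**Figure D2:**
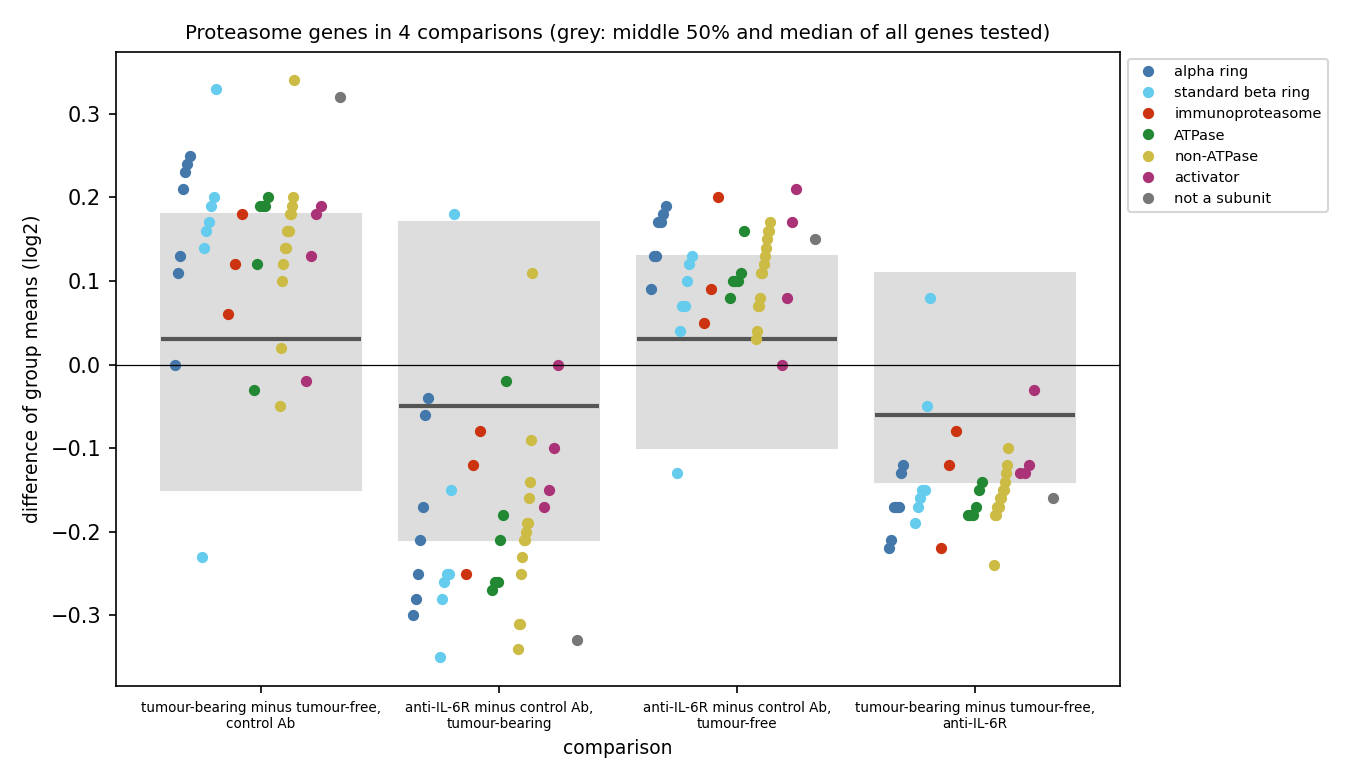
Difference of group means (log2) of each of the 42 members in 4 comparisons, coloured by class; the grey box spans the middle 50% and the dark line the median of all 21520 genes tested. Most members sit above 0 with the tumour under control antibody and with the antibody in tumour-free mice (medians 0.17 and 0.11), and below it in the other two panels (-0.21 and -0.16), with points both inside and beyond the grey boxes.

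In tumour-free mice, anti-IL-6R minus control antibody had a median of 0.11 over the members against 0.03 over all genes, and 41 of 42 genes were above 0 against 58.5% of all genes. None passed in limma (smallest adjusted p 0.62) against 0.0279% of all genes. At an unadjusted p under 0.05, 1 member was higher, Psme4 (0.21 ± 0.08), against 4.77% of all genes, and 0 were lower against 3.16%. The anti-IL-6R arrays lay above both control arrays in 20 members against 24.9% of all genes and below them in Psmb2 against 15.4%. The median was 0.20 without replicate 1 and 0.03 without replicate 2, a range wider than the value itself.

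Under anti-IL-6R, tumour-bearing minus tumour-free mice gave a median of -0.16 against -0.06 over all genes, with 41 of 42 members below 0 against 61.7% of all genes. None passed (smallest adjusted p 0.54) against 0.307% of all genes, and at an unadjusted p under 0.05 there were 6 lower against 4.28% and 0 higher against 3.68%. The tumour-bearing arrays lay below both tumour-free arrays in 36 members against 34.4% of all genes and above them in Psmb2 against 15.7%.

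Whether anti-IL-6R acted differently in the 2 hosts was tested as the interaction term, its effect in tumour-bearing minus that in tumour-free mice. Its median over the members was -0.33 against -0.09 over all genes, from -0.50 for Psmd9 to 0.31 for Psmb2, and 41 of 42 were below 0 against 60.9% of all genes. None passed in limma (smallest adjusted p 0.09, Psma5, at -0.47 ± 0.11) against 0.0418% of all genes. At an unadjusted p under 0.05, 28 members were lower against 15.1% of all genes. Psmb2, opposite in sign, had 0.31 ± 0.10 (adjusted p = 0.12). By class the medians were -0.40 (alpha ring), -0.36 (ATPases), -0.35 (standard beta ring), -0.33 (non-ATPases), -0.29 (immunoproteasome) and -0.28 (activators). The 10 measured pan T cell markers had medians of 0.18, -0.24, 0.07, -0.14 and -0.34 in the 5 comparisons, in the order above. Those of the members were 0.17, -0.21, 0.11, -0.16 and -0.33. With anti-IL-6R in tumour-bearing mice, with the tumour under anti-IL-6R and in the interaction, all 10 markers were below 0. Of all genes 57.8%, 61.7% and 60.9% were. A shared cause was not tested.

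The catalytic subunits were then set side by side. Their probes read chr14:55233161-55233220 (Psmb5), chr11:70341093-70341152 (Psmb6), chr2:38468966-38489385 (Psmb7), chr17:34337771-34337830 (Psmb8), chr17:34319174-34319233 (Psmb9) and chr8:108459677-108459736 (Psmb10) in build mm9 of the file headers, the wide span of Psmb7 coming from a probe whose ends lie apart in the genome. Psmb5 lay at 3.54 and 3.32 in tumour-free control, 3.71 and 3.80 in tumour-bearing control, 3.58 and 3.54 in tumour-free anti-IL-6R and 3.44 and 3.37 in tumour-bearing anti-IL-6R mice. Both tumour-bearing control arrays were the highest of the 8. The difference was 0.33 ± 0.09 with the tumour (95% confidence interval 0.12 to 0.53, adjusted p = 0.071) and -0.35 ± 0.09 with anti-IL-6R in tumour-bearing mice (-0.56 to -0.15, adjusted p = 0.054).

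Psmb6, the caspase-like subunit, had levels of 5.68 and 5.48, 5.74 and 5.82, 5.69 and 5.68, and 5.62 and 5.44 in the same order of groups. Here too replicates 3 and 4 were the highest, and the 2 differences were 0.19 ± 0.09 (adjusted p = 0.24) and -0.25 ± 0.09 (adjusted p = 0.12). Psmb7, the trypsin-like subunit, followed with 2.93 and 2.86, 3.02 and 3.05, 2.95 and 2.92, and 2.95 and 2.82. Replicates 3 and 4 were again the highest, by less (0.14 ± 0.07 and -0.15 ± 0.07). Psmb5 and Psmb6 have pseudogenes with probes of their own on the array, so part of their signal may come from near-identical copies.

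Psmb8, which takes the place of Psmb5, had levels of 5.31 and 5.15, 5.40 and 5.42, 5.28 and 5.28, and 5.22 and 5.10. Both tumour-bearing control arrays were above the other 6, with differences of 0.18 ± 0.08 (0.00 to 0.36, adjusted p = 0.20) and -0.25 ± 0.08 (-0.43 to -0.07, adjusted p = 0.083). Psmb9, which takes the place of Psmb6, had 5.27 and 5.15, 5.32 and 5.35, 5.27 and 5.33, and 5.27 and 5.16. Its control arrays did not overlap between hosts (0.12 ± 0.07), but a tumour-free anti-IL-6R array, at 5.33, reached the level of the tumour-bearing control arrays, and the antibody difference in tumour-bearing mice was -0.12 ± 0.07, or 0.01 under quantile normalization. Psmb10, which takes the place of Psmb7, had 6.56 and 6.33, 6.46 and 6.56, 6.60 and 6.70, and 6.48 and 6.37. It was the only one of the 6 whose highest group was tumour-free mice with anti-IL-6R, and its differences were 0.06 ± 0.09 and -0.08 ± 0.09, both with overlapping arrays; without replicate 2 the first was -0.05. In tumour-free mice anti-IL-6R minus control was 0.20 ± 0.09 for Psmb10 (adjusted p = 0.63), 0.09 ± 0.07 for Psmb9 and 0.05 ± 0.08 for Psmb8.

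**Figure D3:**
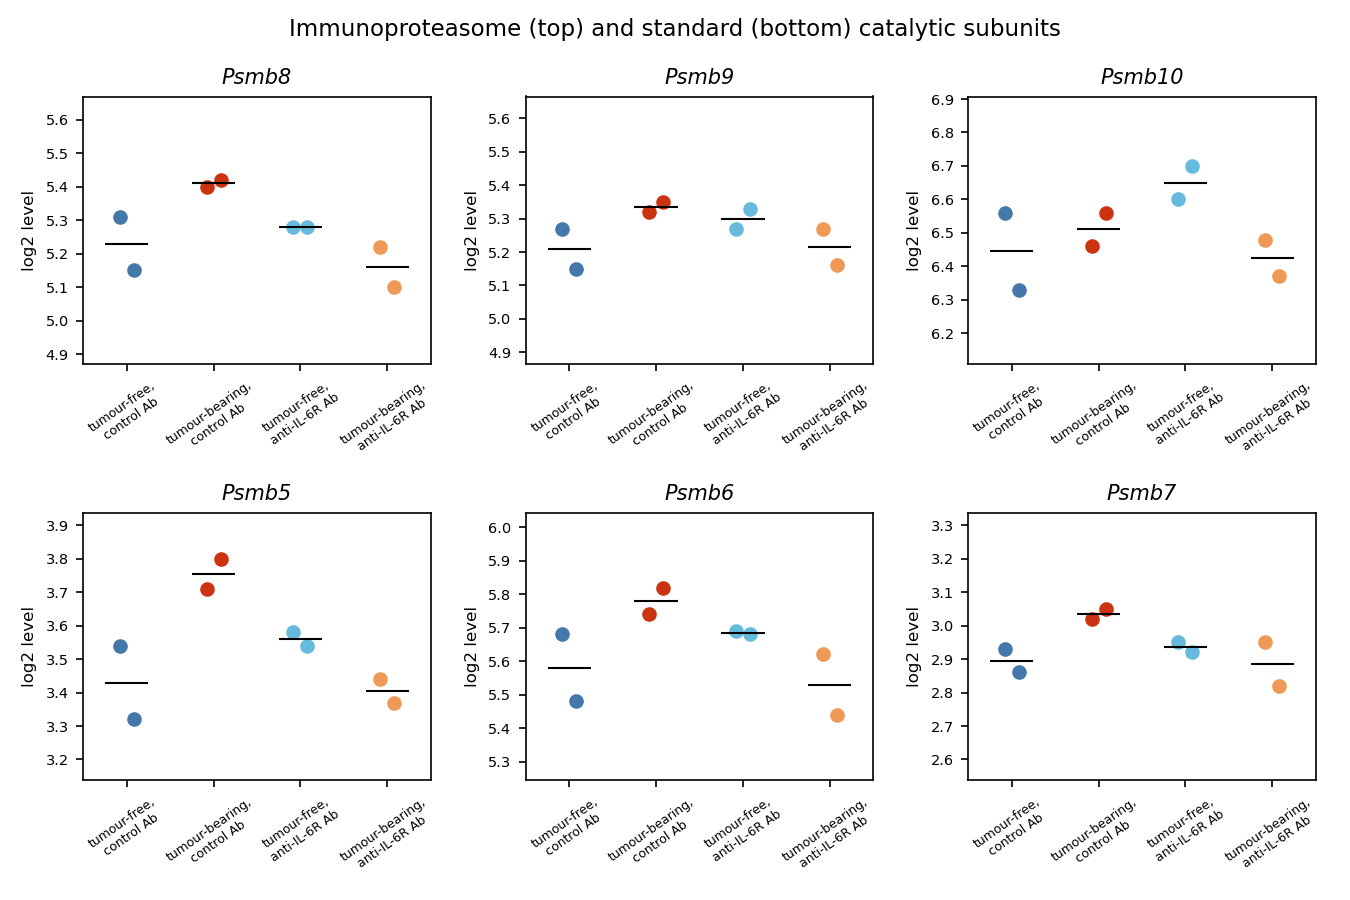
Log2 level (0 is the array's 75th percentile) of the 3 immunoproteasome and the 3 standard catalytic subunits on each array, by group; points are arrays, bars group means, and every panel spans the same log2 range. The tumour-bearing control points are the highest for Psmb5, Psmb6, Psmb7 and Psmb8, from 3.71 and 3.80 for Psmb5 to 3.02 and 3.05 for Psmb7.

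The balance between the 2 kinds of subunit was read as the mean of Psmb8, Psmb9 and Psmb10 minus the mean of Psmb5, Psmb6 and Psmb7 on each array. Levels of different probes cannot be compared, so the zero of this index has no meaning and only its differences between arrays do. The index was 1.66 and 1.65 in tumour-free control, 1.57 and 1.55 in tumour-bearing control, 1.65 and 1.72 in tumour-free anti-IL-6R and 1.66 and 1.67 in tumour-bearing anti-IL-6R mice. Both tumour-bearing control arrays were thus the lowest of the 8, the standard subunits having the larger difference. The index differed by -0.10 between hosts under control antibody and by 0.10 between antibodies in tumour-bearing mice, against a pooled SD between replicates of 0.028, and by 0.02 and -0.02 in the other comparisons, with overlapping arrays. The index was not tested, and with 2 arrays against 2 an exact permutation test cannot give a two-sided p below 0.333.

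The 3 pairs did not behave alike. Psmb8 minus Psmb5 was 1.77 and 1.83, 1.69 and 1.61, 1.71 and 1.74, and 1.78 and 1.73, which gave -0.15 with the tumour and 0.11 with the antibody in tumour-bearing mice, without overlap. Psmb9 minus Psmb6 gave -0.07 and 0.13, also without overlap. Psmb10 minus Psmb7 gave -0.08, with overlap, and 0.07, and it was the pair with the largest difference between antibodies in tumour-free mice, 0.16. Set against the mean of Psma1 to Psma7 in place of the standard catalytic subunits, the immunoproteasome genes differed by -0.05 and 0.04, with overlapping arrays in every comparison.

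**Figure D4:**
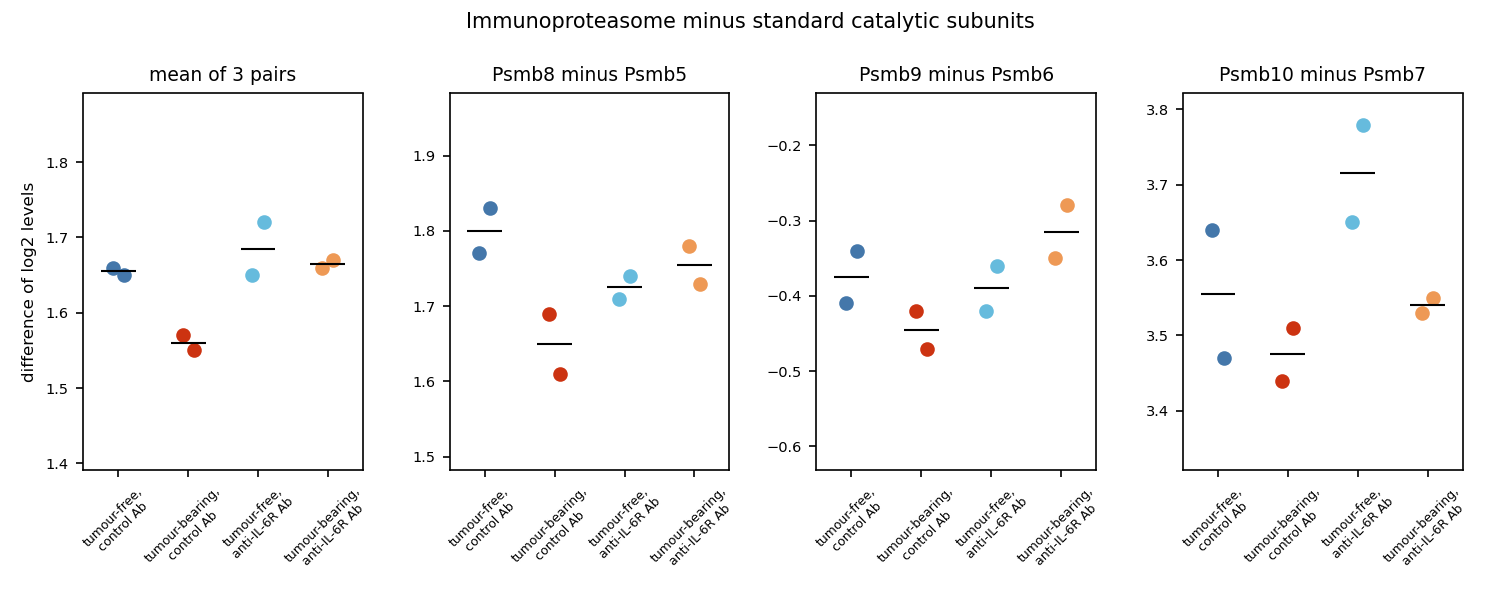
Immunoproteasome minus standard catalytic subunits, as differences of log2 levels, for the mean over the 3 pairs and for each pair; points are arrays and bars group means. In the first panel the tumour-bearing control arrays (1.57 and 1.55) lie below the other 6 (1.65 to 1.72), whereas the pair Psmb10 and Psmb7 has its highest points in tumour-free mice with anti-IL-6R.

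The activators were read next. Psme1 and Psme2 form the interferon-inducible ring that opens the core, and the probes named Psme2b also list accessions of Psme2, so these genes cannot be told apart here. Psme1 had 5.95 and 5.80, 5.98 and 6.03, 5.93 and 5.98, and 5.90 and 5.78 in the 4 groups (0.13 ± 0.08 with the tumour and -0.17 ± 0.08 with anti-IL-6R in tumour-bearing mice, adjusted p = 0.35 and 0.20). Psme2b gave 0.19 ± 0.10, with overlapping arrays, and -0.15 ± 0.10. Psme3, the nuclear activator, stayed between 2.39 and 2.53 on all arrays, with differences of -0.02 and 0.00 and intervals of -0.21 to 0.17 and -0.19 to 0.19; the first was 0.06 under array median scaling and the second 0.08 under quantile normalization. Psme4, which binds the core as a single chain, gave 0.18 ± 0.08 and -0.10 ± 0.08 on its brightest probe, and -0.11 and 0.02 on the mean of its 3 kept probes.

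Psmb2, a structural subunit of the beta ring, ran against the other members on the probe chosen for it. Its levels were 2.25 and 2.29, 2.03 and 2.05, 2.12 and 2.16, and 2.19 and 2.25, so that tumour-bearing control mice were the lowest (-0.23 ± 0.07, adjusted p = 0.095, and 0.18 ± 0.07 with anti-IL-6R, adjusted p = 0.14). That probe, at chr4:126362768-126362827 in mm9, lists no RefSeq accession. The gene's brightest probe with one, whose ends lie apart at chr4:126361456-126364299, had 1.30 and 1.25, 1.39 and 1.50, 1.36 and 1.24, and 1.26 and 0.89, with tumour-bearing control mice the highest. Its differences were 0.17 and -0.37, and those of the third probe 0.29 and -0.37, both with the opposite sign to the chosen probe.

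Over all probes of the members this split was seen only in part. Of 74 probes well above background on all arrays, 65 probes of 42 genes listed a RefSeq accession, and 61 of them were above 0 with the tumour (median 0.14) and 64 below 0 with anti-IL-6R in tumour-bearing mice (median -0.21). The other 9 probes, of 9 genes, listed none, and 6 were below 0 with the tumour (median -0.23), with 5 below and 4 above 0 with the antibody (median -0.04). The 3 above 0 with the tumour were those of Psmc1 (0.26), Psmc6 (0.16) and Psme3 (0.33). Several of the 9 were dim, with mean levels down to -1.90 (Psmd4), though that of Psmc1 was 4.74. Of 23 genes with several such probes, 14 had the same sign on all of them with the tumour and 19 with the antibody. Among the 18 genes with several RefSeq probes, these counts were 17, with Psme4 the exception, and 18. Read on the brightest RefSeq probe, the medians of the 42 genes stayed at 0.17 and -0.21, and 39 were above and 41 below 0 in turn.

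**Figure D5:**
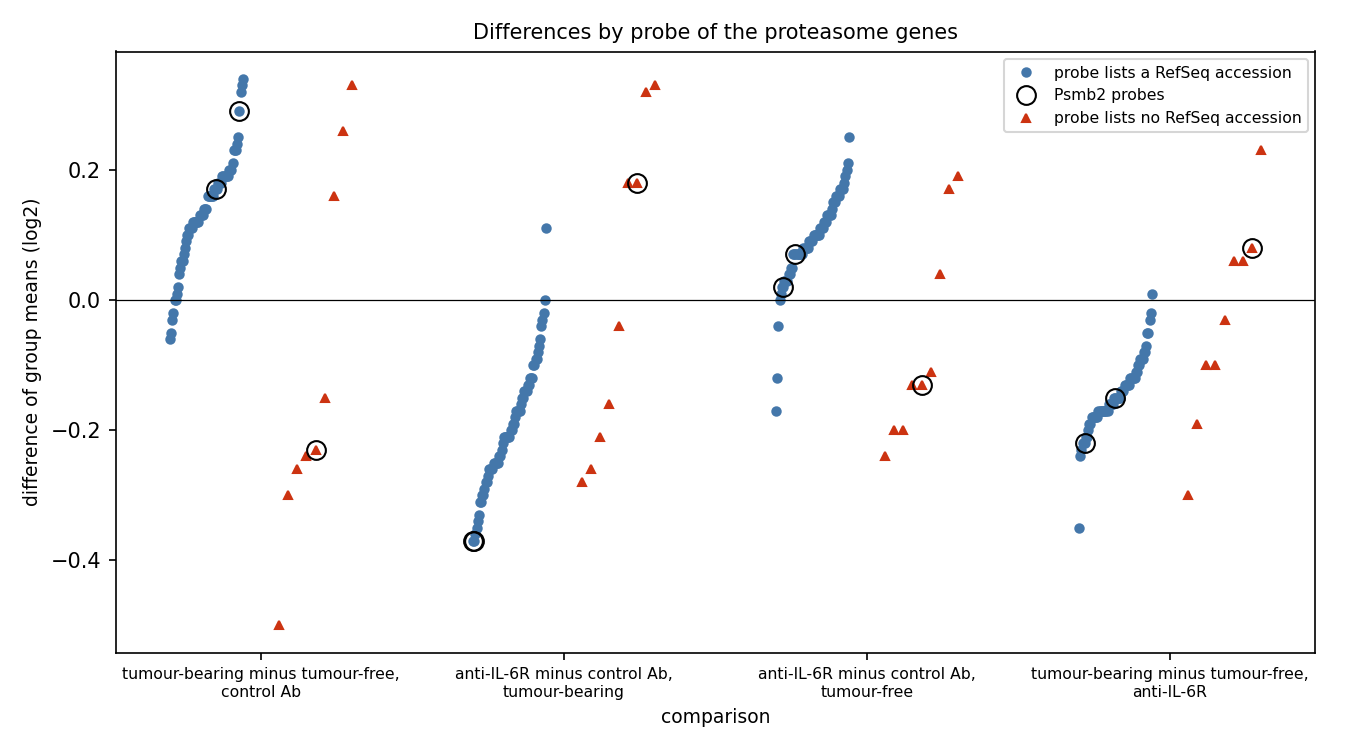
Difference of group means (log2) in 4 comparisons for 74 probes of the 42 members, by whether the probe lists a RefSeq accession; open rings mark the 3 probes of Psmb2. Of the 65 RefSeq probes, 61 lie above 0 in the first comparison and 64 below it in the second, while the 9 others spread from -0.50 to 0.33 in the first.

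Genes around the proteasome were read from lists chosen for their function. Of the assembly and associated factors 21 of 24 were measured and none passed the threshold in either direction in any of the 5 comparisons; at an unadjusted p under 0.05, 4 were higher and 1 lower with the tumour, against 14.1% and 10.6% of all genes, and 1 higher and 6 lower with anti-IL-6R in tumour-bearing mice, against 12.1% and 17.2%. Their medians were 0.10 and -0.08, the second being -0.01 under quantile normalization and -0.24 under array median scaling. Pomp, the maturation factor of the core, had 6.17 and 6.06 against 6.33 and 6.33 (0.21 ± 0.08, adjusted p = 0.13) and 6.14 and 6.03 with anti-IL-6R (-0.25 ± 0.08, adjusted p = 0.082), without overlap. Psmg1, which pairs alpha subunits, gave 0.15 ± 0.10 and -0.32 ± 0.10.

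Of 14 genes of the Nrf1 pathway and its antioxidant targets, 2 rose with the tumour, where 4.24% of all genes rose, and 1 fell with anti-IL-6R in tumour-bearing mice, where 3.82% fell, besides Nqo1, which is described apart. Nfe2l1 itself, at 2.45 and 2.41 against 2.42 and 2.46, differed by 0.01 ± 0.07 and 0.04 ± 0.07, and by -0.05 and -0.12 under quantile normalization and array median scaling in turn. Srxn1, sulfiredoxin, rose from -1.26 and -1.46 to -0.19 and -0.19 (1.17 ± 0.15, adjusted p = 0.0056) in every fit without 1 array. Mafg, a partner of Nrf1, rose by 0.53 ± 0.10 (adjusted p = 0.027), a call lost without replicate 1, 2 or 3, and fell by 0.51 with anti-IL-6R (SE 0.10, adjusted p = 0.036), a call lost without replicate 1, 2, 3, 7 or 8. Nqo1 was well above background on both tumour-bearing control arrays and on no other array, so that it entered the fit only through the group where it is high and its p supports nothing. Its level was at least 1.40-fold lower with anti-IL-6R in tumour-bearing mice (mean -6.33 against -3.68, the first not well above background).

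Of 23 genes of ubiquitin supply and the unfoldase p97, 22 were measured. Their medians were 0.11 with the tumour and -0.09 with anti-IL-6R in tumour-bearing mice, or 0.05 and -0.03 under quantile normalization. With the tumour 16 were above 0, against 54.9% of all genes, and with anti-IL-6R 18 were below 0, against 57.8%. In the interaction the median was -0.22, with 20 of 22 below 0 against 60.9% of all genes. Ubb, which encodes polyubiquitin, differed by -0.03 ± 0.06 with the tumour, and by 0.05 under array median scaling. Past the threshold, 2 genes of this list rose with the tumour, against 4.24% of all genes. With anti-IL-6R in tumour-bearing mice 1 fell past it, against 3.82%. The genes past the threshold were ubiquitin-conjugating enzymes of the mitotic anaphase-promoting complex. Ube2c rose by 0.66 ± 0.14 (adjusted p = 0.034, lost without replicate 1, 2 or 3) and fell by 0.85 (SE 0.14, adjusted p = 0.025, lost without replicate 3 or 8). Ube2s rose by 0.34 ± 0.07 (adjusted p = 0.031, lost without any of replicates 1 to 6).

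Psmb8, Psmb9 and Psmb10 are usually counted among the MHC class I and interferon-gamma genes, whose other members were read beside them. Of 17 MHC class I processing genes 16 were measured, with medians of 0.01 and -0.02, and the antibody median turned with the scaling, at 0.06 under quantile normalization and -0.18 under array median scaling. In tumour-free mice the antibody median was 0.07, with 14 of 16 above 0 against 58.5% of all genes. H2-Q4 rose with anti-IL-6R in tumour-bearing mice (0.67 ± 0.16, adjusted p = 0.048, lost without replicate 1, 2, 3, 4 or 8), in a family of near-identical genes whose probes may read several members, and 2.04% of all genes rose there. Tap1, the neighbour of Psmb9, had 4.33 and 4.46, 4.54 and 4.57, 4.50 and 4.59, and 4.59 and 4.48 (0.16 ± 0.08 with the tumour, and -0.02 ± 0.08, or 0.08 under quantile normalization, with the antibody). Its tumour-bearing arrays overlapped between antibodies, whereas those of Psmb8 did not. Nlrc5, a transactivator of MHC class I genes, gave -0.07 ± 0.07 and 0.11 ± 0.07, and 0.01 and -0.05 under array median scaling.

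Of 24 interferon-gamma signalling genes 23 were measured, with medians of 0.05, or -0.01 under quantile normalization, with the tumour and 0.15 with anti-IL-6R in tumour-bearing mice, or 0.25 under quantile normalization and -0.01 under array median scaling. In tumour-free mice the antibody median was 0.20, with 21 of 23 above 0 against 58.5% of all genes. There 9 were higher at an unadjusted p under 0.05 in limma, against 4.77% of all genes. Under control antibody 1 fell with the tumour, where 1.97% of all genes fell, and 3 rose with anti-IL-6R in tumour-bearing mice, where 2.04% of all genes rose. Cxcl9, a chemokine induced by interferon-gamma, lay under control antibody at -0.41 and -0.47 without and -1.10 and -1.13 with the tumour, and at -0.09 and -0.13 in tumour-bearing anti-IL-6R mice. It fell by 0.67 (SE 0.10, adjusted p = 0.011, lost without replicate 2) and rose by 1.01 ± 0.10 (adjusted p = 0.016, lost without replicate 8), opposite in sign to Psmb8. Which cells of the bulk samples gave the Cxcl9 signal was not tested. Cxcl10 rose by 0.74 ± 0.16 (adjusted p = 0.043, lost without replicate 1, 2, 3, 4, 7 or 8), and the GTPase gene Gbp6 by 0.40 ± 0.09 (adjusted p = 0.047, lost without any 1 of the 8). In tumour-free mice the antibody differences of Cxcl10 and Gbp6 were 0.68 ± 0.16 and 0.32 ± 0.09, neither past the threshold. Ifng gave -0.69 ± 0.25 and 0.58 ± 0.25, and Irf1 -0.19 ± 0.09 and 0.24 ± 0.09, neither past the threshold. The 3 immunoproteasome genes had differences of 0.06 to 0.18 and -0.25 to -0.08 in the first 2 comparisons.

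The calls of listed genes also depended on the processing. Without the filter on dim probes, and without the intensity trend, those of Mafg, Ube2c, Ube2s, H2-Q4, Cxcl10 and Gbp6 were lost in every comparison that had one. Array weights lost those of H2-Q4, Cxcl10, Gbp6 and, with the tumour, Ube2c. Array median scaling lost those of Ube2s, Cxcl10 and Gbp6, and quantile normalization those of H2-Q4 and, with anti-IL-6R, Mafg. Fitting only the arrays compared lost those of Ube2s, H2-Q4, Gbp6 and, with anti-IL-6R, Mafg, and the mean of probes that of H2-Q4. The calls of Srxn1 and Cxcl9 were lost in none of these settings.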

How the data were processed

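Gene expression was measured in CD4+ T cells with 1 one-colour array per sample and 0.1 µg of RNA each. The deposited scanner files hold intensity values. The submitters' processing notes name Agilent Feature Extraction, version 10.10.1.1, as the authors' software. The deposited value table holds log2 values, which equalled the main values here up to a median difference of 0.0081 per array and were used as an alternative. From the processed signal, outlier spots were dropped, spots of a probe averaged, and log2 taken minus the array's 75th percentile (500.3 to 526.6 before scaling). A probe was kept where some group had it well above background on each of its 2 arrays, and the brightest kept probe stood for a gene. Names came from the files and RefSeq accessions. All 8 arrays were fitted as 4 group means in limma 3.58.1 (R 4.3.3, with the package data.table, version 1.17.8) with an intensity trend, two-sided, with Benjamini-Hochberg adjustment over 21520 genes and a threshold of 0.05 (4 residual degrees of freedom), after the script was tested on simulated data. Python 3.11.15, pandas 2.3.3 and matplotlib 3.10.9 did the rest. Alternatives were quantile normalization, array median scaling, normexp (offset 50), 2 other filters, no trend, array weights, the mean of probes, the value table, only the arrays compared, other pairings of subunits and each array left out. The series' design names 2 independent experiments per condition; the sources used here do not give the mice per sample, so p-values measure only the spread between these samples. The number of arrays limits the precision.

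The members and lists were chosen with earlier results of these data known. Named in full were the catalytic and activator genes, the member of each class with the largest and smallest difference in the first 2 comparisons, 10 listed genes, of which 2 are not reported here, and up to 4 list genes past the threshold. The limit for Nqo1 sets the bright group's mean against the higher of its own signal and the lowest signal well above background on each dim array.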

Additional observations from a re-analysis of the deposited data

How the results depend on the processing

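No paired analysis was possible because the labels number the samples 1 to 8 and no number is shared between groups. The count of members past the threshold, 0 in each comparison, became 3 with the tumour under quantile normalization (Psmb5, Psme2b and Psma5; 6.80% of all genes passed), and with anti-IL-6R in tumour-bearing mice 2 under array median scaling (Psmb5 and Psmd9; 10.9%) and 3 under normexp (Psmb5, Psma5 and Psmd13; 8.18%). Leaving out 1 array gave 0 to 1 in these comparisons (Psmb5 without replicate 1 or 2, Psmd13 without replicate 7), and in the fits with 1 such call 3.82% to 7.96% of all genes passed. Array median scaling moved the medians of all genes to 0.11, -0.21, 0.06, -0.16 and -0.28 in the 5 comparisons, in the order of the report, and those of the members to 0.25, -0.37, 0.14, -0.26 and -0.52, which by construction left the members' distance from all genes at 0.14, -0.16, 0.08, -0.10 and -0.24. Under quantile normalization the members' medians were 0.10, -0.11, 0.05, -0.05 and -0.16, at a distance of 0.08, -0.08, 0.04, -0.04 and -0.12. Leaving out 1 array gave 0.09 to 0.24, -0.26 to -0.15, 0.03 to 0.20, -0.20 to -0.11 and -0.40 to -0.25.

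The index of immunoproteasome against standard subunits was 0.17 and 0.11 (antibody in tumour-bearing mice, and interaction) with the mean of all probes. That mean includes a dim second probe of Psmb9, without a RefSeq accession and well above background on 6 arrays. Its mean level was -3.87, against 5.26 for the brightest probe. Its antibody difference in tumour-bearing mice was 0.27, against -0.12, and it also enters the value of Psmb9 on the mean of probes below. Psmb8 minus Psmb5 gave -0.15, 0.11, -0.08, 0.03 and 0.18 in the 5 comparisons, Psmb9 minus Psmb6 gave -0.07, 0.13, -0.02, 0.07 and 0.15, Psmb10 minus Psmb7 gave -0.08, 0.07, 0.16, -0.17 and -0.09, and the alpha ring as reference gave -0.05, 0.04, -0.04, 0.03 and 0.07. Without 1 array the index against Psmb5, Psmb6 and Psmb7 was -0.11 to -0.09, 0.09 to 0.11, -0.01 to 0.06, -0.06 to 0.02 and 0.04 to 0.12.

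Signs turned for some members. With the tumour these were Psma3 (-0.07, quantile), Psme3, Psmc6 and Psmd5 (0.06, 0.06 and 0.03, median scaling), Psme3, Psme4, Psma3, Psmb2 and Psmc6 (0.15, -0.11, -0.08, 0.08 and 0.07, mean of probes) and Psmb2 (0.17, RefSeq probe, chosen after seeing the data). With anti-IL-6R in tumour-bearing mice they were Psmb9, Psme3, Psma3 and Psmc6 (0.01, 0.08, 0.08 and 0.09, quantile), Psmd5 (-0.05, median scaling), Psme3 (0.00, normexp), Psmb9, Psme4, Psma3 and Psmb2 (0.08, 0.02, 0.00 and -0.19, mean of probes) and Psmb2 (-0.37, RefSeq probe). Under quantile normalization Psmb7 was -0.02 with anti-IL-6R in tumour-free mice, and Psmb9 and Psmb7 were 0.02 and 0.04 with the tumour under anti-IL-6R. Among listed genes, the tumour difference turned for Nfe2l1 and Ubb (-0.05 and 0.02, quantile) and Nlrc5 and Ubb (0.01 and 0.05, median scaling), and the antibody difference for Tap1 and Ubb (0.08 and 0.02, quantile), Nfe2l1 and Nlrc5 (-0.12 and -0.05, median scaling) and Tap1 (0.02, mean of probes). Leaving out 1 array turned the sign of 13 single-gene values, here with their ranges: with the tumour Nfe2l1 (-0.01 to 0.04), Psma3 (-0.07 to 0.08), Psmb10 (-0.05 to 0.18), Psmc6 (-0.13 to 0.08), Psmd5 (-0.15 to 0.04), Psme3 (-0.08 to 0.04) and Ubb (-0.07 to 0.01), with anti-IL-6R in tumour-bearing mice Psma3 (-0.11 to 0.03), Psmc6 (-0.12 to 0.08), Psme3 (-0.07 to 0.06) and Tap1 (-0.08 to 0.04), with anti-IL-6R in tumour-free mice Psmb8 (-0.03 to 0.13), and with the tumour under anti-IL-6R Psmb7 (-0.11 to 0.01). The cause was not tested.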
